A study of Mus musculus with 12 samples.

Results

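The genes described here serve fatty acid oxidation and its control by PPAR-alpha: the receptor gene Ppara, the enzymes of mitochondrial and peroxisomal beta-oxidation, the acyl-CoA thioesterases, a gene of ketone body metabolism and further known targets of the receptor. They were chosen as a list of 41 gene symbols, and the Cyp4a genes were left out of it. A probe set with the listed symbol in the platform annotation was found for 40 of the 41, out of 15780 probe sets with a gene symbol in the table. Acsl1 was not matched. A probe set entered the tests where log2(intensity + 1) was at least 4 on at least 3 of the 12 arrays, a limit that 38 of the 40 passed. Acot2 and Fgf21 stayed below it.

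PPAR-alpha is a nuclear receptor that binds DNA together with RXR and is activated by fatty acids and fibrates. In liver it raises the genes that carry fatty acids into mitochondria and peroxisomes, shorten them by beta-oxidation and turn the acetyl-CoA into ketone bodies, a program known best from fasting. Hepatocytes are the main site of this program, and several of its genes also follow the daily feeding rhythm.

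Liver RNA was measured on 12 Affymetrix arrays, 3 in each of 4 groups, and the protocol names 3 animals per group. In the control mice (c-Met loxP/loxP), loxP sites flanked part of Met, which encodes the receptor for hepatocyte growth factor (HGF). The knockout mice had these alleles too, with a Cre transgene that deletes Met in hepatocytes. The Cre was driven either by albumin and alpha-fetoprotein control elements (Alfp-Cre), active before birth, or by the albumin promoter alone (Alb-Cre), active only after birth. The labels do not tell which of them each knockout array represents. Mice of the HGF groups received 2 µg recombinant mouse HGF by intraperitoneal injection 2 h before the liver was taken. The protocol also names sodium chloride injections and a state before injection, and it does not say whether the mice labelled as unstimulated had been injected. Strain, age, sex and feeding state do not appear in the labels, and for these genes the time since the last meal matters. The labels do not tie each array to a mouse, so the tests measure the spread between these samples, which is limited by 3 arrays per group. Control arrays were numbered 1 to 6 and knockout arrays 7 to 12, so genotype cannot be told apart from array order.

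Met itself was at 6.62, 6.84 and 6.77 in controls without HGF, 6.59, 6.78 and 7.02 in controls with HGF, 7.06, 6.68 and 7.18 in knockouts without HGF and 6.61, 7.40 and 6.29 in knockouts with HGF, so its level was not lower in the arrays labelled knockout. The sources used here do not give where its probes lie relative to the deleted part, so Met does not check the genotype labels, and knockout below means the label. Hepatocyte markers were high on every array. For the 10 of 12 listed markers in the table, the summed level was 16.96 to 17.04 on the log2 scale. Adipocyte markers matter here because fat cells also express Cd36, Pdk4, Angptl4 and Plin2. Of 6 such markers in the table, only Fabp4 passed the filter, and Lep (1.85 to 2.22) and Cidec (2.41 to 2.87) were near background throughout. Adipoq, which marks fat cells, was at 6.88 on knockout replicate 1 without HGF and at 1.63 to 2.06 on the other 11 arrays. Summed over the 6, the level was 8.95 on that array and 6.90 to 7.55 on the others. Cholangiocyte, lymphocyte and skeletal muscle markers all stayed below the filter. 2 knockout arrays stood against their labels in stress and clock genes, knockout replicate 2 without HGF and knockout replicate 2 with HGF. The NF-kappaB feedback gene Tnfaip3 was at 3.41, 10.22 and 2.45 on the unstimulated knockout arrays, replicates 1 to 3, and at 3.74, 2.44 and 9.59 on those given HGF, where replicate 1 was low too. The clock output gene Dbp was at 10.72, 2.92 and 10.72 on the unstimulated knockout arrays and 5.09, 11.05 and 2.81 on the others. Values below follow the labels, and for several results the value without these 2 arrays is also given. Because the 2 arrays were picked by such genes, leaving them out by itself favours larger HGF effects in knockouts.

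None of the fat oxidation genes passed the test in any comparison. Limma, with Benjamini-Hochberg adjustment over all 6683 tested probe sets, called 0 of 38 members for HGF in controls, HGF in knockouts, the knockout effect without HGF, with HGF and averaged, and the interaction. In the same order it called 0.404%, 0%, 0.0599%, 0.015%, 0.015% and 0% of all tested probe sets. At an unadjusted p under 0.05 the members numbered 2, 1, 5, 2, 6 and 3, which compares with 19.6%, 1.9%, 10.8%, 9.58%, 9.38% and 10.8% of all tested probe sets. Crat, tested only because of its control values, is among the 2 for the knockout effect with HGF and the 6 averaged. The members nearest to a call were Angptl4 for HGF in controls and Pdk4, Cd36 and Vnn1 for the knockout without HGF. A standard error (SE) of 0.16 was typical of a member's difference between 2 groups (the median over the 38).

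The enzymes of mitochondrial beta-oxidation varied little between livers, while Acot3, Ppara, Plin5 and the targets Pdk4 and Angptl4 varied most. Spread was taken as the highest minus the lowest of the 12 arrays on the log2 scale. Over the 10 tested dehydrogenases and other mitochondrial enzymes it ran from 0.24 (Acadvl) to 0.61 (Decr1), with a median of 0.34. Over the 3 genes of electron transfer it was 0.25 to 0.67. Over the 3 tested secreted and switch targets it was 1.74 (Vnn1) to 3.46 (Pdk4). A spread under 0.5 was seen for 13 of 38 members (34.2%) and for 18.8% of all tested probe sets. A spread of at least 2 was seen for 5 members (13.2%), namely Acot3, Pdk4, Angptl4, Plin5 and Ppara, and for 8.69% of all. The median spread was 0.68 for the members and 0.81 for all tested probe sets. At most 10 of 38 members had their lowest value on any 1 array (control replicate 1 with HGF, as did 19% of all tested probe sets).

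**Figure D1:**
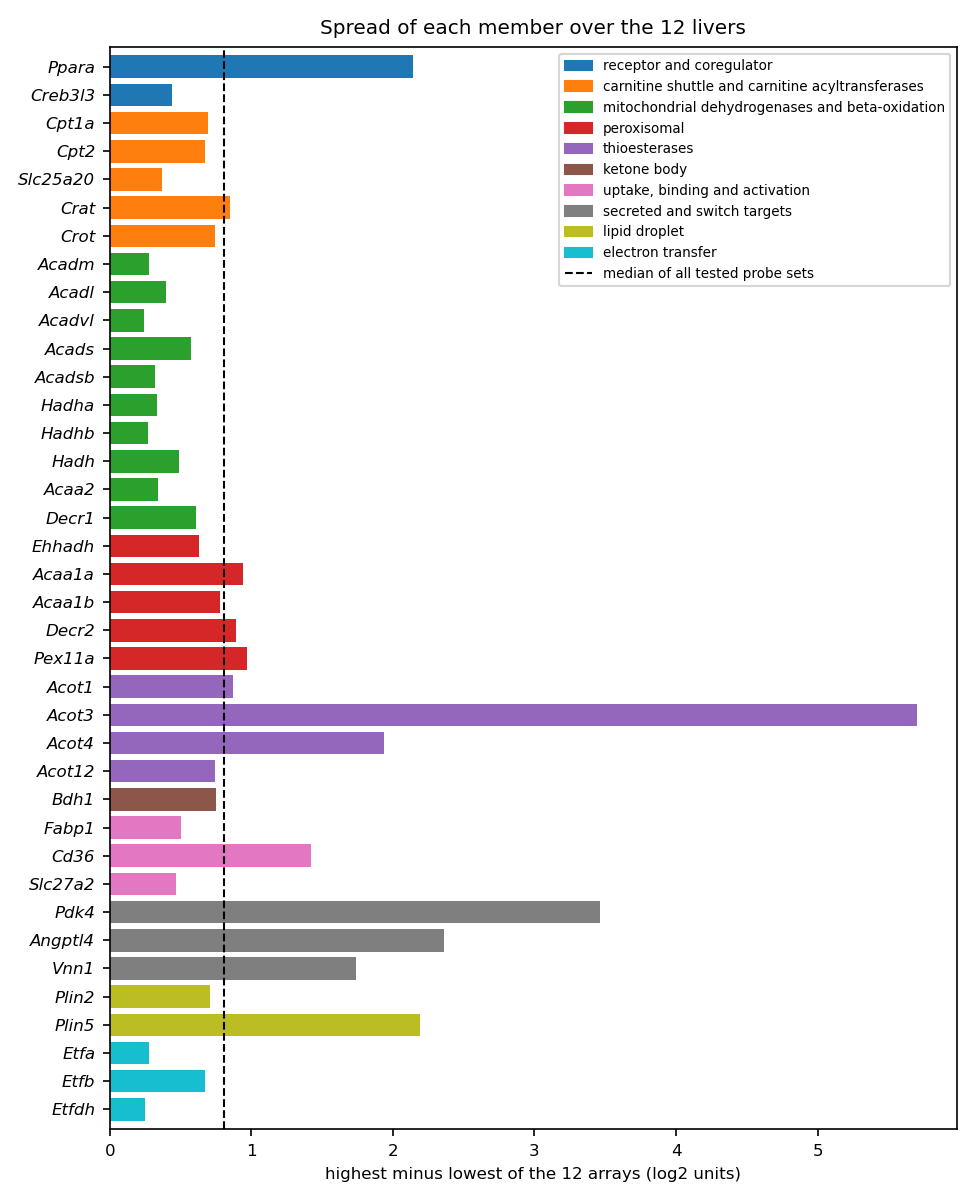
Bars give the highest minus the lowest log2(intensity + 1) over the 12 livers for each of the 38 tested genes, coloured by role, and the dashed line is the median of all tested probe sets (0.81). All 10 mitochondrial enzymes lie below the line, while Acot3 reaches 5.70 and Pdk4 3.46.

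Ppara, the receptor gene (Entrez Gene 19013), was at 9.82, 10.15 and 10.32 in controls without HGF and at 9.34, 9.69 and 9.52 in controls with HGF, all values being log2(intensity + 1) for replicates 1 to 3. It was at 10.99, 9.15 and 10.80 in knockouts without HGF and at 10.03, 10.89 and 8.85 in knockouts with HGF. Every control array with HGF lay below every control array without it, while the knockout arrays of either group reached both above and below all controls. The HGF effect in controls was -0.58 (SE 0.54, limma adjusted p = 0.578), 1 of 4 members that lay lower without overlap, as did 23.7% of all tested probe sets. In knockouts it was -0.39 (SE 0.54, limma adjusted p = 1.0).

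The spread of Ppara in the knockouts went with that of clock genes. The 3 knockout arrays with Ppara at 10.80 or above, replicates 1 and 3 without HGF and replicate 2 with HGF, were the 3 with Dbp at 10.72 or above. The 2 arrays with the lowest Ppara, at 9.15 and 8.85, had Dbp at 2.92 and 2.81. In unstimulated controls Dbp was at 6.22, 5.91 and 7.50, beside Ppara at 9.82, 10.15 and 10.32. In controls given HGF, Dbp was at 5.21, 2.61 and 3.55, beside Ppara at 9.34, 9.69 and 9.52. Within that group the order was reversed, with the lowest Ppara on the array with the highest Dbp. The core clock gene Arntl, whose daily phase opposes that of Dbp, was at 2.77, 5.76 and 2.59 in knockouts without HGF and at 5.66, 2.82 and 5.41 with it. The part of the clock or of the time of sampling in the Ppara values was not tested. Without both knockout replicate 2 arrays, limma put the HGF effect on Ppara in knockouts at -1.45 (SE 0.34, adjusted p = 0.0491), a comparison of 2 arrays with 2. The choice of these arrays rests on genes that respond to HGF, which by itself favours a larger effect. In that fit limma called 2 of 38 members for HGF in knockouts, Ppara and Angptl4, and 4.16% of all tested probe sets.

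**Figure D2:**
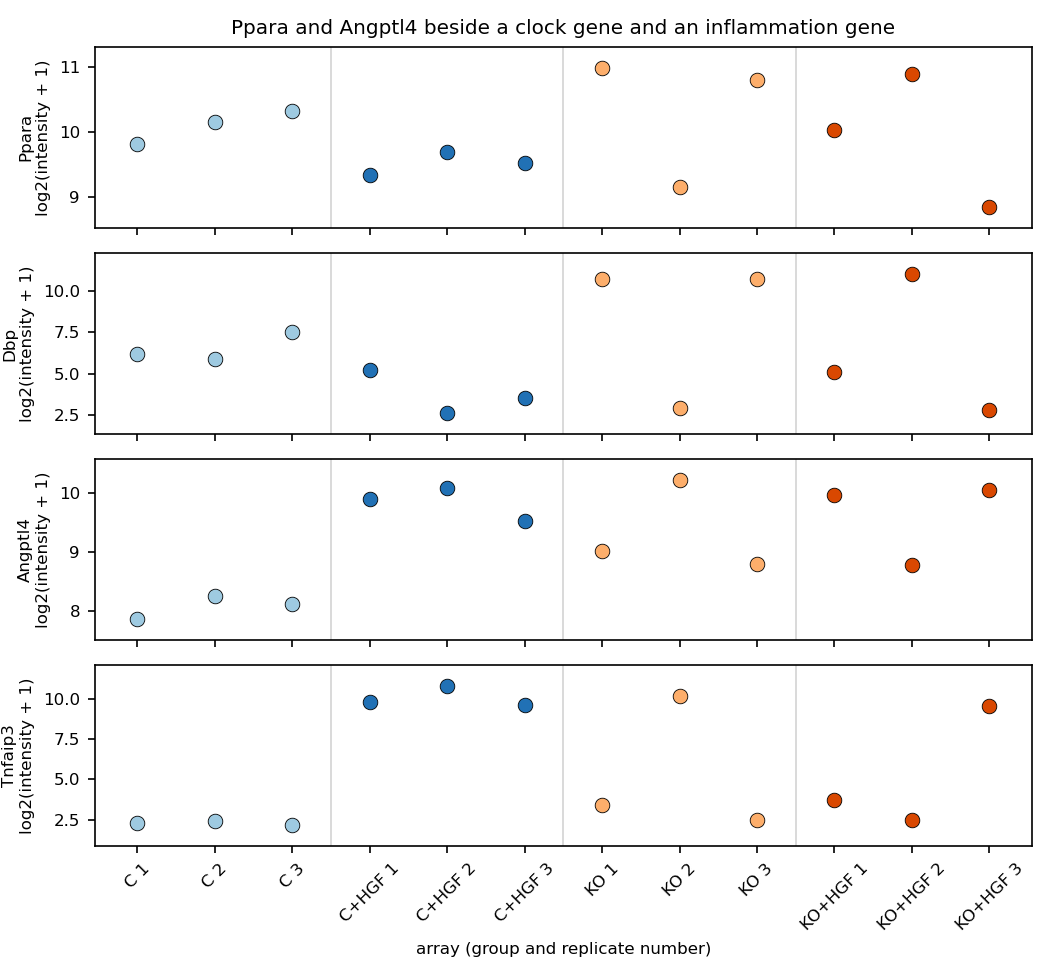
Points are log2(intensity + 1) of Ppara, the clock gene Dbp, Angptl4 and the NF-kappaB feedback gene Tnfaip3 on the 12 arrays, with groups separated by grey lines (C, control; KO, knockout) and a vertical axis for each gene. Ppara and Dbp are both low on knockout replicate 2 without HGF (9.15 and 2.92) and both high on knockout replicate 2 with HGF (10.89 and 11.05).

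Creb3l3 encodes a hepatocyte transcription factor that acts together with PPAR-alpha in fasting. It differed little, with 10.15, 10.51 and 10.36 in controls without HGF and a range of 10.08 to 10.51 over the 12 arrays. Its HGF effect in controls was -0.17 (SE 0.13, limma adjusted p = 0.481).

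Among genes of fatty acid uptake and binding, Fabp1 and Cd36 differed most between groups. Fabp1 encodes the liver fatty acid binding protein, a long known PPAR-alpha target. Its promoter is shown because it alone among the 36 members with a promoter window held a match to a relaxed form of the spaced repeat that the receptor recognises. Acaa2, Angptl4, Crat, Decr1 and Vnn1 had no window and were not searched. The sequence is from RefSeq (GRCm38.p6, chr6:71199629-71199878, plus strand) and covers the 250 bases before the transcription start, with matches in capitals.
Fabp1: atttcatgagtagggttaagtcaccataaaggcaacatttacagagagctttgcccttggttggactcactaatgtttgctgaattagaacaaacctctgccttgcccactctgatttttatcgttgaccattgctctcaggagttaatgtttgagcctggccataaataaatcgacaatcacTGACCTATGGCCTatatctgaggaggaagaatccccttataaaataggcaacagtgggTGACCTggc
The motif searched, on both strands, was AGGNCA repeated in the same direction with 1 base between the copies. The match, TGACCTATGGCCT, is its reverse complement at positions -67 to -55 from the start. Of 41 windows from 36 members, 1 held it (2.44%), against 0.338% of 32851 windows of all genes. The stricter form with AGGTCA in both copies was in 0 member windows and in 0.0335% of all. The single motif AGGTCA, which overlaps the Fabp1 match and occurs again at -9 to -4 there, was in 11 member windows (26.8%) and in 14% of all. These letters were read only in the 250 bases before each start.

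Fabp1 was at 13.89, 14.07 and 14.04 in controls without HGF, 13.57, 13.72 and 13.88 in controls with HGF, 13.86, 14.03 and 14.0 in knockouts without HGF and 13.92, 13.95 and 13.97 in knockouts with HGF. Control arrays with HGF were the lowest of all apart from knockout replicate 1 without HGF, which lay below control replicate 3 with HGF. With HGF the difference in controls was -0.28 (SE 0.10, limma adjusted p = 0.185). The knockout effect with HGF was 0.23 (SE 0.10, limma adjusted p = 0.533), without overlap between the groups, and 0.13 with array weights.

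Cd36, a scavenger receptor that takes up long-chain fatty acids, was at 7.73, 7.53 and 7.60 in controls without HGF and at 8.0, 7.96 and 7.67 in controls with HGF. It was at 8.19, 8.53 and 8.73 in knockouts without HGF and at 8.27, 7.31 and 8.43 in knockouts with HGF. Every unstimulated knockout liver lay above every control liver, and 1 knockout liver with HGF, replicate 2, had the lowest value of all 12. The knockout effect without HGF was 0.87 (SE 0.26, limma adjusted p = 0.261), 1.82-fold. Without both knockout replicate 2 arrays it was 0.85 (SE 0.18, limma adjusted p = 0.0451), in a fit that called 1 of 38 members and 2.69% of all tested probe sets. Cd36 is also made by fat cells, endothelium and macrophages. The array with Adipoq at 6.88 had the lowest Cd36 of its group (8.19). Endothelial markers (8 of 8 tested) summed to 10.54 to 10.60 in controls and 10.36 to 10.71 in knockouts without HGF. Macrophage markers (11 of 11 tested) summed to 11.77 to 12.37 and 11.38 to 11.99, and stellate cell markers (6 of 8 tested) to 10.66 to 10.90 and 11.13 to 11.37. In whole liver, more cells of a type and more RNA per cell cannot be told apart, and the part of these cells in the Cd36 values was not tested.

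Slc27a2, a fatty acid transporter and very long-chain acyl-CoA synthetase, was at 12.22, 12.31 and 12.26 in controls without HGF and 12.36, 12.49 and 12.25 in controls with HGF. It was at 12.33, 12.14 and 12.23 in knockouts without HGF and 12.25, 12.35 and 12.02 in knockouts with HGF. All 4 groups overlapped, and the knockout effect with HGF was -0.16 (SE 0.11, limma adjusted p = 0.656), or -0.07 without knockout replicate 3 with HGF.

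The carnitine shuttle moves long-chain fatty acids across the mitochondrial membranes. Cpt1a, its rate-limiting acyltransferase, was at 9.36, 9.46 and 9.46 in controls without HGF and 9.80, 9.46 and 9.38 in controls with HGF. It was at 10.05, 9.50 and 9.66 in knockouts without HGF and 9.67, 9.87 and 9.46 in knockouts with HGF. Each knockout array without HGF lay above each control array without HGF, replicate 2 only narrowly, and the difference was 0.31 (SE 0.17, limma adjusted p = 0.572). It was 0.15 without knockout replicate 1, the array with Adipoq at 6.88, and 0.53 with array weights. Cpt2, the acyltransferase on the matrix side, was at 10.09, 10.07 and 10.24 in controls without HGF and 10.30, 10.42 and 10.16 in controls with HGF. In knockouts it was at 10.06, 10.22 and 9.75 without HGF and 10.33, 9.98 and 10.38 with HGF. With HGF it was higher by 0.16 in controls and 0.22 in knockouts (0.44 without both knockout replicate 2 arrays), none past the test. Slc25a20, the carnitine and acylcarnitine carrier, ranged from 9.14 to 9.51.

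Crot, the peroxisomal carnitine octanoyltransferase, ranged from 11.52 to 12.26 and was lower with HGF in controls without overlap (-0.20, SE 0.18). Crat, carnitine acetyltransferase, was near background, at 3.86, 3.91 and 4.12 in controls without HGF, 4.35, 4.18 and 3.78 in controls with HGF, 3.68, 3.86 and 3.50 in knockouts without HGF and 3.59, 3.51 and 3.88 in knockouts with HGF. Its 3 values of at least 4 were all in controls, so it was tested only because of the group where it is higher, and its knockout effects are a description. The averaged effect was -0.37 (SE 0.12, limma adjusted p = 0.373), and -0.18 with a pseudocount of 16.

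Mitochondrial beta-oxidation removes 2 carbons a turn through a dehydrogenase, a hydratase, a second dehydrogenase and a thiolase. The acyl-CoA dehydrogenases act on chains of different length, and their genes were nearly level over the 12 livers. Acadm (medium chain) ranged from 10.31 to 10.59, Acadvl (very long chain) from 10.69 to 10.93 and Acads (short chain) from 8.16 to 8.73. Acadsb, for short branched chains, ranged from 9.20 to 9.52. Acadl, for long chains, was at 10.29, 10.26 and 10.35 in controls without HGF, 10.42, 10.45 and 10.21 in controls with HGF, 10.58, 10.51 and 10.50 in knockouts without HGF and 10.61, 10.52 and 10.33 in knockouts with HGF. The unstimulated knockouts lay above the unstimulated controls without overlap, and the difference was 0.23 (SE 0.10, limma adjusted p = 0.482). Averaged over both conditions it was 0.18 (SE 0.07, limma adjusted p = 0.494).

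Hadha and Hadhb encode the 2 subunits of the mitochondrial trifunctional protein and are transcribed away from each other from a shared region. Their windows of 250 bases before the start overlap by 228 bases. That of Hadha is shown because the genes share most of it (RefSeq, GRCm38.p6, chr5:30154981-30155230, minus strand). It holds no AGGTCA on either strand.
Hadha: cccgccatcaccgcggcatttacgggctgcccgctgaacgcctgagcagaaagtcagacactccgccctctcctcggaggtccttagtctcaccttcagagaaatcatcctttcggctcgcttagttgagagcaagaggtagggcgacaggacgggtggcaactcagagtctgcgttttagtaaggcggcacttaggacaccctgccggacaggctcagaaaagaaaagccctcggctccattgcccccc
Hadha was at 10.14, 10.19 and 10.19 in controls without HGF, 10.22, 10.10 and 10.16 in controls with HGF, 10.23, 10.29 and 10.15 in knockouts without HGF and 10.43, 10.30 and 10.28 in knockouts with HGF. Knockouts with HGF lay above controls with HGF without overlap, and the difference was 0.18 (SE 0.09, limma adjusted p = 0.556). Hadhb ranged from 11.67 to 11.95, and its knockout effect with HGF was 0.01 (SE 0.10, limma adjusted p = 0.991). The difference between the 2 genes was not tested.

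Hadh, the dehydrogenase for medium and short chains, was at 11.78, 11.73 and 11.80 in controls without HGF and 11.45, 11.67 and 11.61 in controls with HGF. It was at 11.94, 11.64 and 11.83 in knockouts without HGF and 11.80, 11.91 and 11.73 in knockouts with HGF. Control livers with HGF lay below those without HGF and below the knockouts with HGF, without overlap in either case. For controls the HGF effect was -0.19 (SE 0.11, limma adjusted p = 0.35). The knockout effect with HGF was 0.24 (SE 0.11, limma adjusted p = 0.525). Acaa2, the mitochondrial thiolase, was at 11.53, 11.66 and 11.70 in controls without HGF, 11.42, 11.57 and 11.56 in controls with HGF, 11.72, 11.53 and 11.77 in knockouts without HGF and 11.73, 11.76 and 11.57 in knockouts with HGF, with overlap in each comparison. Decr1, a reductase for unsaturated chains, ranged from 8.76 to 9.37.

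The electron transfer flavoprotein passes electrons from the dehydrogenases to the respiratory chain. Its subunit gene Etfa was at 11.22, 11.39 and 11.30 in controls without HGF, 11.20, 11.35 and 11.26 in controls with HGF, 11.25, 11.30 and 11.40 in knockouts without HGF and 11.23, 11.29 and 11.12 in knockouts with HGF, and Etfb ranged from 10.10 to 10.77. Etfdh, the enzyme that takes over the electrons, was at 10.47, 10.51 and 10.52 in controls without HGF and 10.72, 10.68 and 10.58 in controls with HGF. It was at 10.59, 10.63 and 10.67 in knockouts without HGF and 10.69, 10.72 and 10.68 in knockouts with HGF. Etfdh was the only member whose arrays with HGF lay above those without HGF in both genotypes. The HGF effect was 0.16 (SE 0.08, limma adjusted p = 0.305) in controls, and in knockouts it was 0.07 (SE 0.08, limma adjusted p = 1.0).

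Peroxisomes shorten very long and dicarboxylic chains. Ehhadh, the bifunctional enzyme and a classic PPAR-alpha target, ranged from 10.76 to 11.38, and its knockout effect without HGF was -0.03 (SE 0.15, limma adjusted p = 0.961). Acaa1a and Acaa1b encode closely related thiolases, and probes for one may pick up the other. Acaa1b ranged from 12.58 to 13.37. Acaa1a was at 7.40, 7.43 and 7.54 in controls without HGF, 7.52, 7.05 and 7.73 in controls with HGF, 7.72, 7.76 and 7.70 in knockouts without HGF and 7.67, 7.75 and 7.99 in knockouts with HGF. Knockouts lay above controls without overlap in the absence of HGF only, and control replicate 3 with HGF reached 7.73. The averaged knockout effect was 0.32 (SE 0.11, limma adjusted p = 0.39).

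Decr2, the peroxisomal reductase for unsaturated chains, was at 9.28, 8.98 and 9.08 in controls without HGF, 8.68, 9.41 and 9.17 in controls with HGF, 9.47, 9.18 and 9.56 in knockouts without HGF and 8.86, 9.47 and 9.20 in knockouts with HGF, and the groups overlapped in each comparison. Pex11a, which promotes the division of peroxisomes, was at 8.89, 9.12 and 9.36 in controls without HGF and 9.35, 9.86 and 9.28 in controls with HGF. It was at 9.28, 9.54 and 9.49 in knockouts without HGF and 9.29, 9.10 and 9.55 in knockouts with HGF. Its HGF effect in controls was 0.37 (SE 0.19, limma adjusted p = 0.304), with overlap between the groups, and 0.19 without control replicate 2 with HGF and knockout replicate 3 without HGF, whose label numbers carry an added letter.

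Acyl-CoA thioesterases release free fatty acids from CoA. Acot1, Acot2, Acot3 and Acot4 lie within 3 genes of each other on chromosome 12 and are similar in sequence, so their probe sets may not be independent. Acot3, a peroxisomal enzyme, had the widest spread of all members, at 3.25, 3.44 and 3.47 in controls without HGF and 5.67, 2.97 and 2.60 in controls with HGF. In knockouts it was at 4.21, 3.16 and 8.29 without HGF and 4.12, 6.31 and 3.52 with HGF. It was at least 4 on 5 arrays, and no group held only high values. Among controls only replicate 1 with HGF reached 4, so Acot3 passed the filter through the knockouts. Its knockout effects are a description. The knockout effect without HGF was 1.84 (SE 1.27, limma adjusted p = 0.671), with replicate 3 at 8.29 far above the other 2 knockout arrays.

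The same array had the highest Acot4, at 5.94, and its neighbours in order were knockout replicate 2 with HGF (5.28) and replicate 1 with HGF (5.17). Acot4 is a peroxisomal succinyl-CoA thioesterase and was at 4.0 to 4.99 in the controls. Acot1, the cytosolic long-chain enzyme, ranged from 7.99 to 8.87. Acot2, the mitochondrial one, stayed between 3.24 and 4.11 and was not tested. Acot12, a cytosolic acetyl-CoA thioesterase, was at 8.13, 8.10 and 8.26 in controls without HGF, 8.34, 7.96 and 7.95 in controls with HGF, 8.68, 8.08 and 8.56 in knockouts without HGF and 8.22, 8.51 and 8.09 in knockouts with HGF. Its averaged knockout effect was 0.24 (SE 0.13, limma adjusted p = 0.582).

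Bdh1 interconverts the ketone bodies acetoacetate and beta-hydroxybutyrate. It was at 10.67, 10.89 and 10.84 in controls without HGF and 10.43, 10.68 and 10.33 in controls with HGF. It was at 10.95, 10.76 and 11.07 in knockouts without HGF and 10.98, 11.02 and 10.49 in knockouts with HGF. Control replicates 1 and 3 with HGF and knockout replicate 3 with HGF were the lowest of the 12. In controls HGF gave a difference of -0.32 (SE 0.16, limma adjusted p = 0.305). The knockout effect with HGF was 0.35 (SE 0.16, limma adjusted p = 0.532).

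Apart from Acot3, differences of 1 or more between groups were seen only for Angptl4 and Pdk4, which PPAR-alpha controls but which stand outside the oxidation pathway. Angptl4 encodes a secreted inhibitor of lipoprotein lipase, and besides PPAR-alpha it responds to glucocorticoids and hypoxia. It was at 7.86, 8.25 and 8.12 in controls without HGF and at 9.90, 10.09 and 9.53 with HGF. Unstimulated knockouts had 9.01, 10.22 and 8.79, and knockouts given HGF had 9.97, 8.78 and 10.06.

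Every other array of the series lay above the 3 unstimulated controls in Angptl4. The HGF effect in controls was 1.76 (SE 0.41, limma adjusted p = 0.0801), 3.40-fold, 1 of 2 members that lay higher without overlap, against 14.1% of all tested probe sets. The knockout effect without HGF was 1.27 (SE 0.41, limma adjusted p = 0.287), also without overlap. The HGF effect in knockouts was 0.27 (SE 0.41, limma adjusted p = 1.0), and the interaction, the knockout HGF effect minus that in controls, was -1.50 (SE 0.57, limma adjusted p = 0.415). Limma called the control effect of 1.76 without knockout replicate 2 without HGF (adjusted p = 0.0203), without knockout replicate 2 with HGF (0.0497), without both (0.00109), on the 2 control groups alone (0.0017) and, at 1.66, with array weights (0.00209). In these fits the share of all tested probe sets called was 4.74%, 0.868%, 8.16%, 12% and 20.2%. The SE was 0.41 in the fit of all arrays and 0.16 without both. Without both, the HGF effect in knockouts was 1.12 (SE 0.20, adjusted p = 0.0236), the knockout effect without HGF was 0.83 in place of 1.27, and the interaction was -0.65 in place of -1.50. The knockout comparison is then of 2 arrays with 2. The choice of the arrays left out rests on genes that respond to HGF, as Angptl4 may. By itself it favours a larger HGF effect in knockouts and a smaller SE.

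Stress genes followed Angptl4 on most arrays but not on all. Junb, an immediate early gene, was at 3.68, 4.01 and 4.39 in controls without HGF, 8.24, 8.60 and 8.64 in controls with HGF, 5.0, 8.0 and 5.31 in knockouts without HGF and 7.59, 6.29 and 7.81 in knockouts with HGF. Knockout replicate 2 without HGF and replicates 1 and 3 with HGF, which had Angptl4 at 9.97 or above, had Junb at 7.59 or above. Knockout replicate 1 with HGF, with Angptl4 at 9.97, had Tnfaip3 at 3.74 and the acute phase gene Saa3 at 7.66, where unstimulated controls had Saa3 at 7.05 to 8.20. Of 9 neutrophil markers in the table, S100a8 (up to 10.08) and S100a9 (up to 10.74) passed the filter and the other 7 did not. Among the 7, Elane was at 2.14 to 2.43, Mpo at 1.80 to 2.27, Csf3r at 2.59 to 4.12 and Cxcr2 at 2.71 to 4.27. The summed level of all 9 was 5.75 to 6.79 in controls without HGF, 9.62 to 11.48 in controls with HGF, 5.92 to 10.32 in knockouts without HGF and 5.48 to 10.30 in knockouts with HGF. The part of inflammation in the Angptl4 values was not tested.

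Pdk4 encodes a kinase that shuts off pyruvate dehydrogenase and so spares glucose when fat is burned. It was at 7.34, 7.39 and 5.95 in controls without HGF and 4.87, 6.04 and 5.47 with HGF. In knockouts it was at 3.93, 5.69 and 4.32 without HGF and 6.51, 4.73 and 4.12 with it. The highest values, 7.34 and 7.39, were in unstimulated controls, and the lowest, 3.93, was on the knockout array with Adipoq at 6.88. The knockout effect without HGF was -2.25 (SE 0.67, limma adjusted p = 0.261), with no overlap. That held for 2 members that lay lower (5.26%) and for 12.1% of all tested probe sets. The other member was Crat, which was tested only because of its control values. The HGF effect in controls was -1.43 (SE 0.67, limma adjusted p = 0.273), where the groups overlapped. The interaction was 1.91 (SE 0.95, limma adjusted p = 0.501), from 1.21 without knockout replicate 1 with HGF to 3.19 with array weights.

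Vnn1, a pantetheinase and PPAR-alpha target, was at 7.45, 8.36 and 8.35 in controls without HGF and 8.88, 8.74 and 8.20 in controls with HGF. It was at 8.84, 9.18 and 8.70 in knockouts without HGF and 8.71, 8.73 and 8.48 in knockouts with HGF. The knockout effect without HGF was 0.86 (SE 0.26, limma adjusted p = 0.262), with no overlap, as for 7 members that lay higher (18.4%) and 6.61% of all tested probe sets. Those 7 were Acaa1a, Acadl, Angptl4, Cd36, Cpt1a, Etfdh and Vnn1. Control replicate 1 without HGF was low at 7.45, and without it the knockout effect was 0.56 and the HGF effect in controls 0.25 in place of 0.55. Fgf21, a fasting hormone of the liver, was at 2.48, 2.66 and 3.91 in controls without HGF and at 1.99 to 2.59 on the other 9 arrays, all below the filter.

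Plin2 and Plin5 coat lipid droplets. Plin2 was at 11.37, 11.71 and 11.56 in controls without HGF, 11.22, 11.63 and 11.24 in controls with HGF, 11.08, 11.38 and 11.04 in knockouts without HGF and 11.75, 11.39 and 11.48 in knockouts with HGF. In knockouts the arrays with HGF narrowly lay above those without it, 1 of 2 members to do so (5.26%), against 2.56% of all tested probe sets. The HGF effect in knockouts was 0.37 (SE 0.16, limma adjusted p = 1.0), and 0.56 without both knockout replicate 2 arrays. The interaction was 0.56 (SE 0.23, limma adjusted p = 0.43). Plin5, which tethers droplets to mitochondria, was at 7.47, 7.75 and 7.73 in controls without HGF, 8.51, 7.64 and 7.09 in controls with HGF, 7.0, 7.70 and 6.32 in knockouts without HGF and 8.33, 6.82 and 7.84 in knockouts with HGF. Its HGF effect in knockouts was 0.66 (SE 0.46, limma adjusted p = 1.0). That value was 1.43 without both knockout replicate 2 arrays and 0.31 without the 2 arrays with an added letter, knockout replicate 3 without HGF being one of them.

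**Figure D3:**
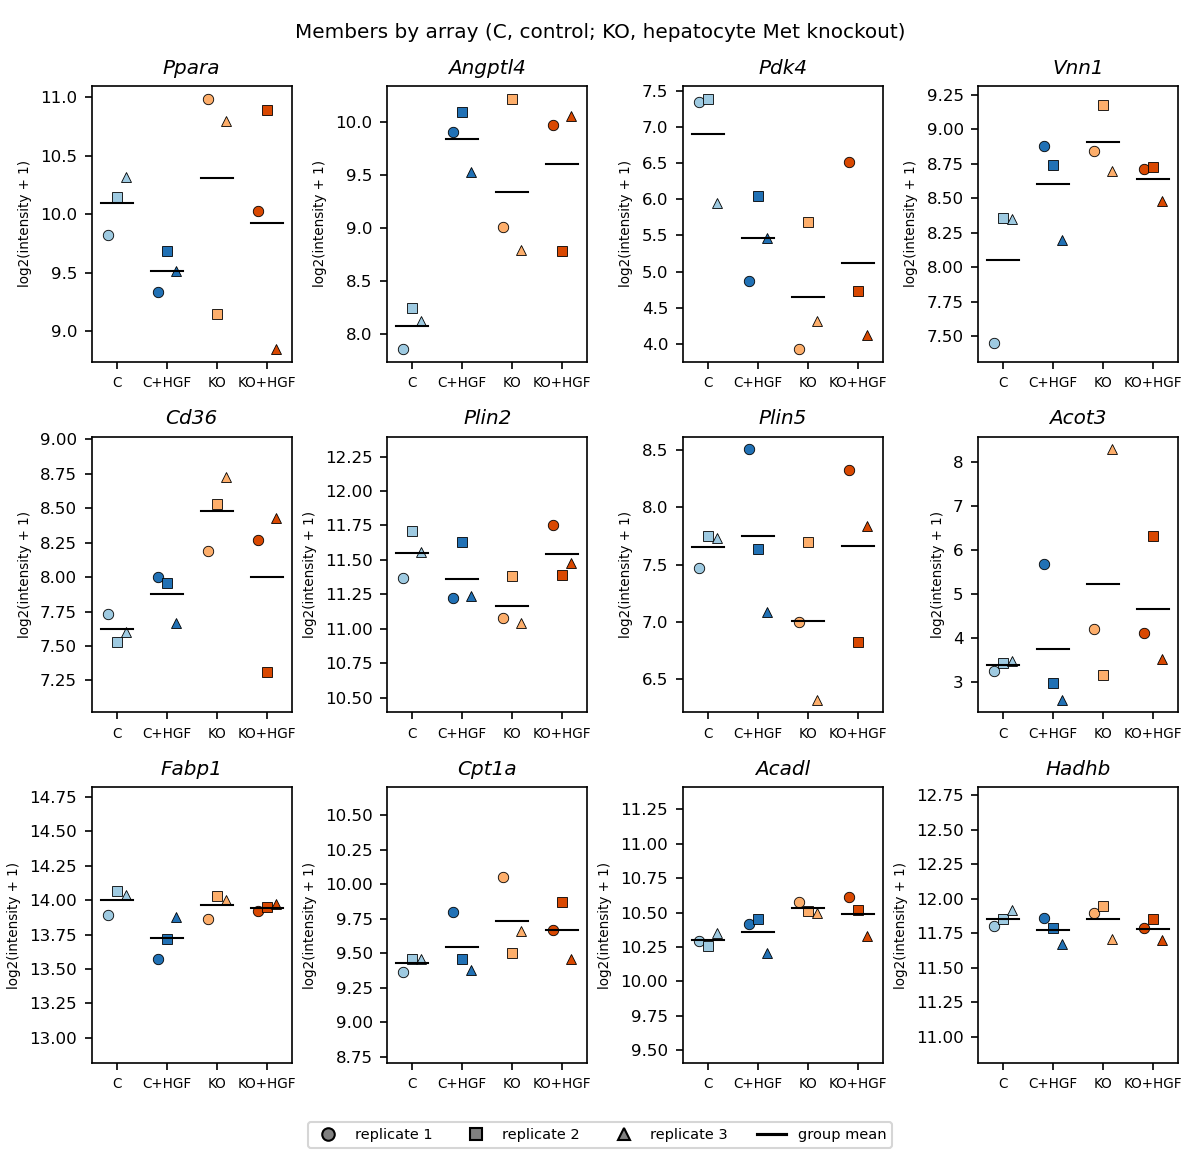
Each panel plots log2(intensity + 1) of 1 gene on the 12 arrays, by group (C, control; KO, knockout), with marker shape for the replicate number and a bar for the group mean; each panel has its own vertical axis, of at least 2 units. Angptl4 is at 7.86 to 8.25 in unstimulated controls and at 8.78 or above elsewhere, while Fabp1, Acadl and Hadhb stay within 0.50 over all arrays.

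In controls, most fat oxidation genes differed little with HGF. The groups with and without HGF did not overlap for 6 of 38 members (15.8%), Angptl4, Crot, Etfdh, Fabp1, Hadh and Ppara, and for 37.7% of all tested probe sets. The median difference was -0.04 for the members and -0.09 for all, and the median of absolute differences 0.13 and 0.20. Of the 38 members, 13 (34.2%) were higher with HGF, against 35.6% of all. By role the median difference was -0.05 for the 10 mitochondrial enzymes, -0.03 for the 5 peroxisomal genes, 0.12 for the 5 of the carnitine group and 0.55 for the 3 secreted and switch targets.

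In knockouts the HGF differences ran from -0.57 (Acot3) to 0.66 (Plin5). Arrays with and without HGF did not overlap for 2 members (5.26%), Etfdh and Plin2, and for 3.8% of all tested probe sets. The median absolute difference was 0.08 for the members and 0.10 for all, and 15 members (39.5%) were higher with HGF, against 48.7%. The interaction ranged from -1.50 (Angptl4) to 1.91 (Pdk4), with a smallest limma adjusted p = 0.415, and was above 0 for 21 members (55.3%) and 60.5% of all.

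**Figure D4:**
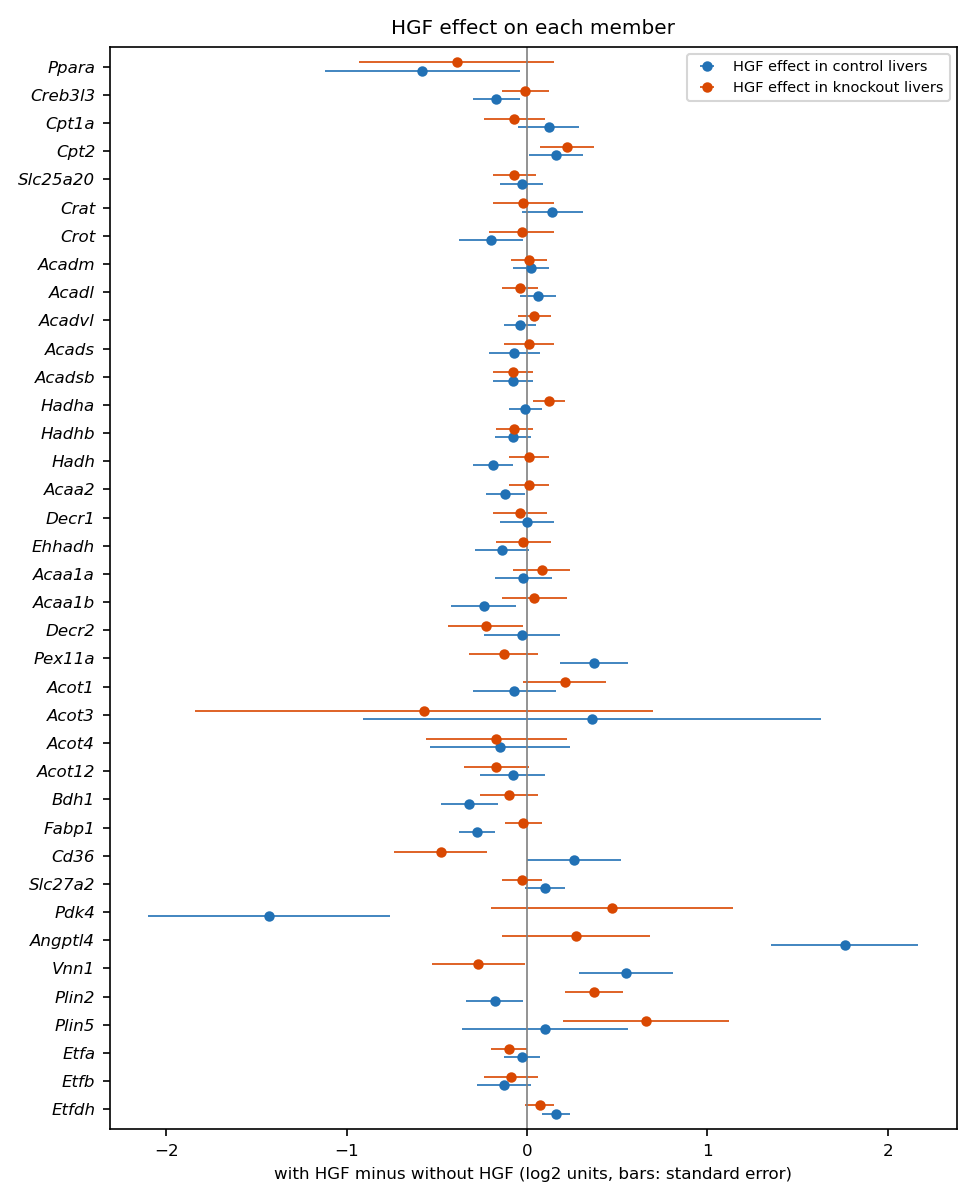
Points are the difference with HGF minus without HGF on the log2 scale for each of the 38 tested genes, in control livers (blue) and knockout livers (red), and bars are standard errors from limma. Angptl4 (1.76) and Pdk4 (-1.43) stand out in controls.

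As group means, the knockout livers had slightly higher values for most fat oxidation genes, in sizes near the error of a single gene. With HGF, 29 of 38 members (76.3%) were higher in knockouts, against 56.8% of all tested probe sets. Without HGF it was 26 (68.4%) against 45.1%, and averaged 29 (76.3%) against 50.2%. The median difference was 0.11 with HGF, 0.07 without and 0.10 averaged, against 0.04, -0.03 and 0 over all, and stayed at 0.06 to 0.13 under quantile normalization and median centring. Leaving out 1 array gave medians of 0.07 to 0.16 with HGF, 0.03 to 0.11 without and 0.07 to 0.12 averaged; the 0.03 was without control replicate 1 without HGF. All 10 mitochondrial enzymes were positive with HGF (median 0.12) and 9 of 10 without it (0.06). The groups did not overlap for 9 members without HGF (23.7%) and 3 with it (7.89%), Fabp1, Hadh and Hadha, and for 18.7% and 14.9% of all tested probe sets. With HGF all 3 lay higher, as did 8.81% of all. Crat is among the 9 without HGF, and Acot3 is among the members counted as higher in knockouts. Both passed the filter through the genotype where they are higher. Limma with array weights, which counts variable arrays less, called 5 members without HGF (Pdk4, Cd36, Cpt1a, Angptl4 and Acot12) and 4 on average (Acadl, Cd36, Cpt1a and Acot12), with 9.53% and 8.53% of all tested probe sets. With HGF it called 0 members and 4.34% of all. These weights stopped before they converged. Without HGF they moved the knockout effect on Cpt1a from 0.31 to 0.53 and that on Cd36 from 0.87 to 0.68. Both moves were towards knockout replicate 1 without HGF, the array with Adipoq at 6.88. Without both knockout replicate 2 arrays limma called 0 members for the knockout effect with HGF, the averaged effect and the interaction, with 0.0299%, 0.853% and 0.359% of all, and on the unstimulated groups alone 0 members and 0.0748%. The averaged effect is made from the arrays of the other 2, so the 3 counts are not independent. The members share the same arrays, so a count of genes is not a count of livers. By array, the median deviation of the members from their level over all arrays was also taken. It was -0.09 to 0.03 in controls without HGF and -0.08 to 0.02 with HGF. In knockouts it was 0.03 to 0.08 without HGF and -0.04 to 0.09 with HGF, the -0.04 on replicate 3. Some control arrays lay above that knockout array. A difference of the list as a whole between livers was not tested.

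**Figure D5:**
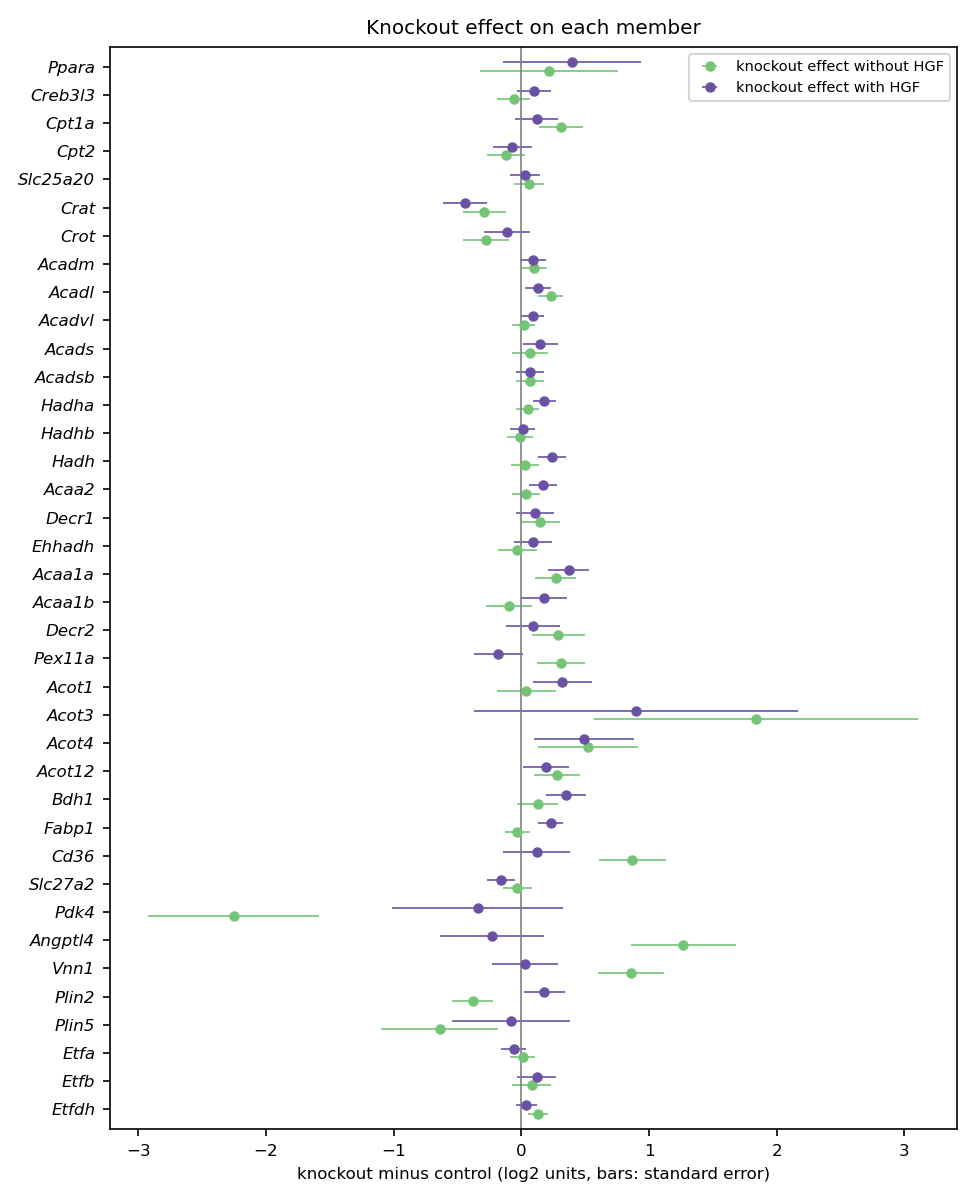
Points are the difference knockout minus control on the log2 scale for each of the 38 tested genes, without HGF (green) and with HGF (purple), and bars are standard errors from limma. The mitochondrial genes lie between -0.01 and 0.24, while Pdk4 (-2.25) and Acot3 (1.84) differ most without HGF.

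Further genes of the pathway were examined from 6 lists of 135 genes, of which 118 were in the table and 96 were tested. They covered ketone bodies, peroxisomes, receptor partners, lipolysis and droplets, the malonyl-CoA switch and other acyl-CoA dehydrogenases. Limma called 1 of the 96 for HGF in controls and 0 in each of the other 5 comparisons. At an unadjusted p under 0.05 there were 16, 0, 10, 10, 12 and 9 of the 96, in the order HGF in controls, HGF in knockouts, knockout without HGF, with HGF, averaged and interaction. The shares of all tested probe sets were 19.6%, 1.9%, 10.8%, 9.58%, 9.38% and 10.8%. The called gene was Pnpla2, which encodes the triglyceride lipase that releases fatty acids from droplets. Pnpla2 was at 6.93, 6.83 and 6.81 in controls without HGF and 7.89, 7.50 and 7.79 with HGF, and at 7.64, 7.50 and 7.37 in knockouts without HGF and 7.41, 7.44 and 7.71 in knockouts with HGF. It rose by 0.87 with HGF in controls (SE 0.13, limma adjusted p = 0.0338). All 6 knockout arrays lay above the unstimulated controls, at 7.37 to 7.71. Its interaction was -0.85 (SE 0.19, adjusted p = 0.244).

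In the list of other acyl-CoA dehydrogenases and mitochondrial steps, Ivd and Hsd17b10, which serve the breakdown of branched-chain amino acids, had the smallest p for the averaged knockout effect, at 0.29 (SE 0.07, limma adjusted p = 0.236) and 0.35 (SE 0.10, adjusted p = 0.248). Of the 16 tested genes of that list, 15 were higher in knockouts on average, with a median of 0.15, where 50.2% of all tested probe sets were higher. Of the 24 tested peroxisomal genes 19 were higher, with a median of 0.06, and of the 3 tested ketone body genes 2. For HGF in controls, 18 of 24 peroxisomal genes were lower and 6 higher, where 35.6% of all tested probe sets were higher, with a median of -0.12 against -0.09 over all tested probe sets, led by the trans-2-enoyl-CoA reductase gene Pecr at -0.32 (SE 0.11, adjusted p = 0.167).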

How the data were processed

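Total RNA from frozen mouse liver was labelled by a one-cycle protocol and hybridised to Affymetrix arrays, per the labels' protocols. The deposited values are linear intensity values, 1 per probe set and array, that the authors made with GCRMA, per the submitters' processing notes. Version and settings are not given in the sources used here. This method scales arrays to each other. The size of differences near background, as for Crat and Acot3, depends on the processing and may be understated or overstated. The averaged knockout effect on Crat was -0.37, and -0.18 with a pseudocount of 16. All 12 sample columns were used, and 0 were left out. Gene symbols came from the platform annotation, with 15780 of 16475 probe sets named.

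Values were taken as log2(intensity + 1), with no further scaling. Probe sets at 4 or above on at least 3 arrays were kept (6683). Limma 3.58.1 in R 4.3.3 fitted the means of the 4 groups (8 residual degrees of freedom) with empirical Bayes, tested 6 contrasts two-sided and adjusted p over all kept probe sets by Benjamini-Hochberg, with calls at 0.05. The fit was tested on simulated data. Alternatives changed the pseudocount (16), the filter, the scaling, array weights, the arrays in the fit and the replicate block, and left out each array.

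Summed marker levels are log2 of the summed linear intensity. Values on every array were given for Ppara and, in each contrast, for the 8 members with the smallest p, and other members where their role called for them. Further pathway genes were named where called or among the 3 of their list with the smallest p. The members and all lists were chosen with earlier results of these data known. Promoter sequences came from RefSeq (GRCm38.p6).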

Additional observations from a re-analysis of the deposited data

How the results depend on the processing

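No member was called by limma with all arrays at equal weight under another pseudocount, no filter, a stricter filter, quantile normalization, median centring or the replicate block. For HGF in controls 1 member, Angptl4, was called with array weights, on the 2 groups alone, without both knockout replicate 2 arrays, and without either of them, so that leaving out 1 array gave 0 to 1 calls. For HGF in knockouts 2 were called without both knockout replicate 2 arrays, a choice that rests on genes that respond to HGF. For the knockout without HGF 5 were called with array weights and 1 without both replicate 2 arrays, and for the averaged knockout effect 4 with array weights. The array weights stopped before they converged. The median knockout effect with HGF, 0.11, was 0.07 to 0.16 with 1 array left out. Over 48 results, the 8 members with the smallest p in each contrast, and 1037 alternative values, 1024 kept their side of the threshold and their direction, 13 moved past the threshold and 0 turned. Picking by small p favours a steady direction. Leaving out an array of another group cannot change a difference between 2 groups. Calls of members outside the 8, such as Ppara for HGF in knockouts, are not among the 13.

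The labels do not say whether replicate numbers pair the arrays, but same-numbered arrays with and without HGF carry consecutive array numbers. Same-numbered arrays with and without HGF deviated from their group means with r of 0.10, 0.18 and 0.05 in controls and 0.12, -0.83 and -0.70 in knockouts. These values do not decide about pairing. They come from 3 arrays per group, and the knockout values include the arrays that stood against their labels. For the HGF effects and the interaction, the replicate block joined same-numbered arrays within a genotype. For the knockout effects it joined same-numbered arrays of both genotypes, for which the labels give no ground. With these blocks, 0 members were called in every contrast, and of all tested probe sets 0, 0, 1, 1, 1 and 0, against 27, 0, 4, 1, 1 and 0 without them. The order is HGF in controls, HGF in knockouts, knockout without HGF, with HGF, averaged and interaction. Fits on 2 groups alone are not defined for the averaged effect and the interaction, and Crat was not tested under the stricter filter. With 3 arrays per group and a median SE of 0.16, differences of the size most members showed could not be told from the spread between arrays.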

Other observations

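Several genes near the oxidation pathway differed widely with HGF in controls, though none of those named here passed limma's test in the fit of all arrays. G0s2, which encodes an inhibitor of the lipase made from Pnpla2, was at 8.29, 9.23 and 9.65 in controls without HGF and 4.10, 2.32 and 3.04 with it, and at 8.48, 3.71 and 8.66 in knockouts without HGF and 9.57, 8.75 and 4.26 in knockouts with HGF. Its HGF effect in controls was -5.90 (SE 1.5, adjusted p = 0.0979). The control groups did not overlap, and 2 knockout arrays, replicate 2 without HGF and replicate 3 with it, lay near the controls given HGF. Nr0b2, the bile acid responsive corepressor SHP, was at 8.92, 8.69 and 9.02 in controls without HGF, 3.99, 4.27 and 5.76 in controls with HGF, 7.14, 3.71 and 7.57 in knockouts without HGF and 8.51, 7.80 and 4.67 in knockouts with HGF. The same 2 knockout arrays were the lowest of the knockouts. Its HGF effect in controls was -4.20 (SE 1.12, adjusted p = 0.103).

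Aacs, which activates acetoacetate for lipid synthesis, was at 7.72, 7.46 and 7.73 in controls without HGF, 4.82, 5.59 and 5.40 in controls with HGF, 7.89, 5.11 and 6.91 in knockouts without HGF and 5.81, 6.78 and 7.13 in knockouts with HGF, with an HGF effect in controls of -2.37 (SE 0.59, limma adjusted p = 0.0977). Lpin1, a phosphatidate phosphatase and coactivator of PPAR-alpha, was at 7.59, 7.49 and 7.66 in controls without HGF, 9.79, 8.71 and 9.46 in controls with HGF, 9.10, 9.16 and 8.28 in knockouts without HGF and 10.46, 8.55 and 10.89 in knockouts with HGF. All 9 other arrays lay above the unstimulated controls, as for Angptl4. Its HGF effect in controls was 1.74 (SE 0.53, adjusted p = 0.127).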
